A study of Mus musculus with 10 samples.

Results

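The 34 genes described here carry out cholesterol synthesis, its control by SREBP and LXR, and cholesterol transport and turnover. They were taken as rows of the count table by name, from a list drawn up with earlier results of these data known, and all 34 were among the 22000 genes of the table and among the 14344 genes that passed the filter on low counts. The genes fall into 5 branches: 8 genes of the mevalonate and prenyl steps, 11 genes from squalene to cholesterol, 6 genes of SREBP and LXR control, 7 transport genes and 2 turnover genes. The list leaves out some enzymes and receptors of the pathway.

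RNA-seq of the prefrontal cortex (PFC) of 5 *Zbtb16* knockout (KO) and 5 wild-type (WT) mice was compared. KO mice were homozygous for the luxoid allele of the B6.C3-Zbtb16lu/J strain, a nonsense mutation that is present in every cell from conception, and WT mice carried no luxoid allele. All mice were labelled male and 7 weeks old, none was treated, and 1 library was made per mouse. *Zbtb16* encodes PLZF, a zinc finger transcription factor.

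Cholesterol in the brain is made locally, because plasma lipoproteins do not cross the blood-brain barrier. Acetyl-CoA is turned into mevalonate, isoprenoids, squalene and finally cholesterol, and most of these enzymes are transcribed under SREBP-2, which SCAP escorts to the Golgi when sterols are low and INSIG proteins hold in the ER when sterols are high. Oligodendrocytes use much cholesterol for myelin, astrocytes export it on ApoE particles, and neurons remove it by 24-hydroxylation.

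In the KO PFC, 1 of the 34 genes passed the test. *Fdft1*, which encodes squalene synthase and commits the pathway to sterols, was higher by 0.16 ± 0.04 on the log2 scale (SE, n = 5 per genotype, edgeR quasi-likelihood test, adjusted p = 0.0452). None of the 34 was called lower by edgeR, and none was at an unadjusted p under 0.05 in that direction. DESeq2 and limma also called 0 lower. As background, 0.600% of the 14344 genes were called higher and 0.244% lower. The edgeR fit held 3 covariates estimated from the counts, called surrogate variables. In this fit, every 95% interval of a fold change over the 34 genes lay between 0.834-fold (*Nsdhl*, lower bound) and 1.26-fold (*Idi1*, upper bound). Intervals without these covariates were not computed.

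Libraries held 30220122 to 51231439 counts, and no 2 of the 10 libraries agreed within sampling noise. *Zbtb16* RNA was 47.4 ± 4.96 CPM in KO and 79.0 ± 7.23 CPM in WT mice (SD, n = 5), lower by 0.67 on the log2 scale (adjusted p = 2.80e-05, edgeR), and the groups did not overlap. RNA integrity numbers (RIN) were 8.1 to 8.3 in KO mice 3 and 5 and WT mice 3 and 4, and 9.5 to 9.8 in the other mice. KO mouse 5 had the deepest library and the lowest RIN, and it was the highest of the 10 mice in 18.9% and the lowest in 18.3% of all tested genes. In KO mouse 3, labelled male, 4 Y-linked genes had 1 count together, against 4376 to 8182 in the other mice. The sex label of this mouse is therefore in doubt. *Nsdhl* and *Ebp* lie on the X chromosome, and the part of sex in the values below was not tested. All 12 oligodendrocyte markers were detected, and their summed level was 6582 to 9514 CPM in KO and 6803 to 8538 CPM in WT mice. Of these 12 markers, 9 had negative log2 fold changes, 3 of them at an unadjusted p under 0.05 (edgeR). Without KO mouse 5, 7 of the 12 were positive. The 4 excitatory neuron markers summed to 5466 to 6376 CPM in KO and 5085 to 5732 CPM in WT mice, and the 7 astrocyte markers to 4872 to 5703 and 5115 to 5687 CPM. Summed markers of microglia (230 to 255 CPM in KO, 212 to 243 in WT), oligodendrocyte precursors (152 to 183 and 144 to 158), interneurons (702 to 793 and 763 to 840) and endothelium (125 to 152 and 136 to 154) had ranges that overlapped between the genotypes. The excitatory neuron sum of KO mice 1, 3, 4 and 5 was above that of every WT mouse. All 5 interneuron markers had negative log2 fold changes, 3 of them at an unadjusted p under 0.05, and all 3 precursor markers had positive ones, 1 of them at that p. At that p, 1 excitatory neuron marker was higher, 2 astrocyte markers were higher and 1 lower, and 3 striatal neuron markers were higher. Also at that p, 1 microglia and 1 endothelial marker were lower, against 5.10% of all tested genes lower and 5.51% higher. None of the cell type markers was called by edgeR. The part of these shifts in the values below was not tested. The 6 striatal neuron markers varied the most, from 219 to 336 CPM in KO and 174 to 404 CPM in WT mice, and of 2 kidney and liver markers no library had more than 1 count. In this bulk tissue, fewer cells of a type and less RNA per cell cannot be told apart.

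A pair of promoters is shown because their genes stand at both ends of the SREBP circuit, an output enzyme and a feedback protein, and both were highest in KO mouse 5. Capitals mark matches to the sterol regulatory element letters TCACNCCAC on either strand with at most 1 mismatch, and the NF-Y letters CCAAT or ATTGG. Both sequences run from 250 bases before to 50 bases after the RefSeq start, on the plus strand of GRCm38.p6. The *Hmgcs1* promoter lies at chr13:119690101-119690400 and holds 1 exact match and 1 match with 1 mismatch, and the *Insig1* promoter lies at chr5:28071162-28071461 and holds 1 match with 1 mismatch, on the minus strand.
Hmgcs1: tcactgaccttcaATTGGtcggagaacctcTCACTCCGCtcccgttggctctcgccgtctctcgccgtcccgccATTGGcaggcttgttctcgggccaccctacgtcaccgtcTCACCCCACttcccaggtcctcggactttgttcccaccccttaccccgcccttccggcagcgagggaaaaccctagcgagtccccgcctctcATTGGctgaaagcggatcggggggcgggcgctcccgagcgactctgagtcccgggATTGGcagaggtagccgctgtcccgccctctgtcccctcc
Insig1: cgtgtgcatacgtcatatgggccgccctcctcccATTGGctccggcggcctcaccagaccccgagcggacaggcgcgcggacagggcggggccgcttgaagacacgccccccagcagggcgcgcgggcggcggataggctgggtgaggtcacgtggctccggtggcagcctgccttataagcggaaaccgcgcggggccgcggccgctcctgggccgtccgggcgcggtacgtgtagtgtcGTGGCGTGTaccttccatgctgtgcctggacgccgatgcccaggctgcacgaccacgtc

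RefSeq promoters of this length were found for 27 of the 34 genes, 37 promoters in all, and not for *Fdps*, *Fdft1*, *Sqle*, *Stard4*, *Abcg1*, *Abcg4* and *Npc1*. TCACNCCAC on either strand was in 1 of these 37 promoters, or 2.7%, and in 1.24% of all 32851 promoters of the table. In *Hmgcs1* the exact match began at position -137 from the start. With 1 mismatch allowed it was in 11 of 37, or 29.7%, and in 24.2% of all promoters. CCAAT was in 23 of 37, or 62.2%, against 37.4% of all promoters, and the Sp1 letters GGGCGG in 27 of 37, or 73.0%, against 35.7%. The 3 motifs were counted separately, and a promoter could hold several. These matches describe letters and not binding.

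Levels were compared between genes only per length, as CPM per kilobase of annotated exon in the 5 WT mice. *Apoe*, which encodes the main apolipoprotein of the brain, an astrocyte product, stood first at 472 ± 25.3 CPM per kilobase (SD, n = 5). Of 13623 tested genes with a length, 99.9% were at or below it. *Hmgcs1*, the synthase that makes HMG-CoA, followed at 70.9 ± 2.86 CPM per kilobase. *Cyp46a1*, the neuronal cholesterol 24-hydroxylase, came next at 63.3 ± 1.80, and *Srebf2*, which encodes SREBP-2, was at 34.6 ± 2.34 CPM per kilobase. Each of these 4 genes was separated from the next by WT ranges that did not overlap.

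The lower ranks ran close together. *Fdft1* at 22.1 ± 0.875 and *Insig1* at 22.0 ± 1.13 CPM per kilobase could not be ordered, and 9 of the 33 neighbouring pairs in all were separated. The lowest were *Soat1*, the acyltransferase that makes cholesteryl esters, at 3.65 ± 0.204 and *Tm7sf2*, a sterol C14 reductase, at 3.36 ± 0.280 CPM per kilobase. The median over the 13623 tested genes with a length was 5.56 CPM per kilobase, and 27 of the 34 genes lay above it. *Srebf1*, the SREBP gene tied to fatty acid synthesis, was at 5.63 ± 0.664 CPM per kilobase, against the 34.6 of *Srebf2*. Exons of all transcripts were joined for these lengths, so a gene with long, rarely used exons is set low. Only uniquely mapped reads were counted, so sequence shared with other genes can also set a gene low. At 95% identity or more, the shared part of the longest transcript was 65.6% for *Acat2*, 33.7% for *Fdft1*, 23.5% for *Ggps1* and 22.6% for *Idi1*. Another annotated gene on the same strand overlapped 26.7% of the exon bases of *Fdps* and 12.1% of those of *Tm7sf2*.

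**Figure D1:**
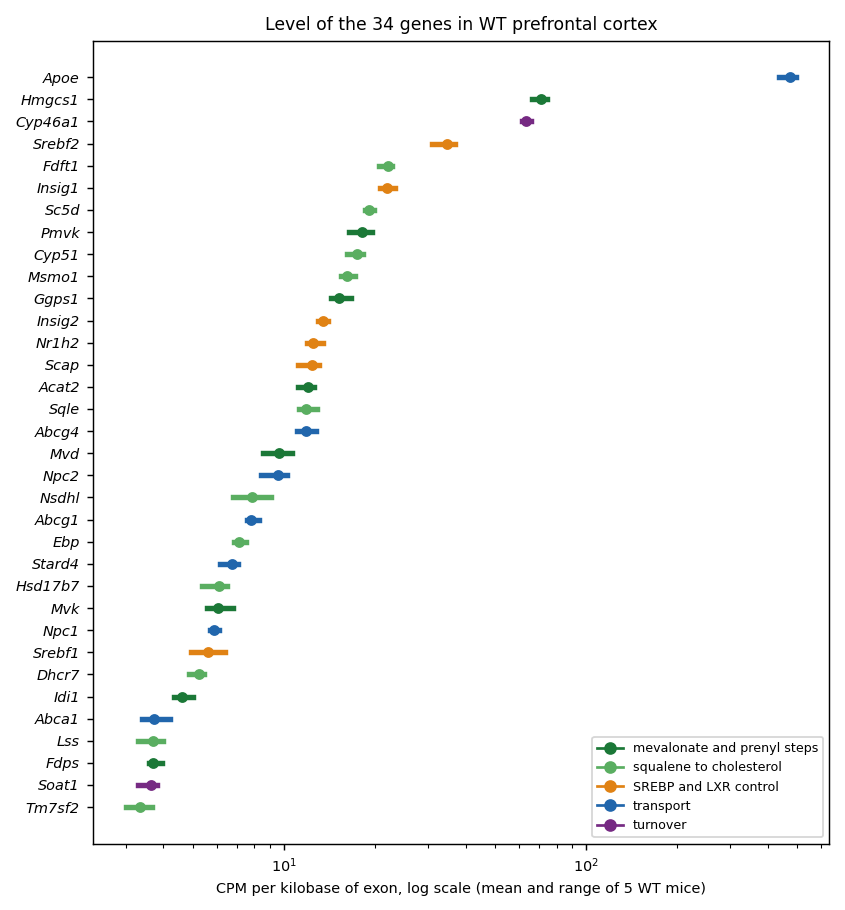
Level of the 34 genes in WT PFC, as CPM per kilobase of exon on a log axis, coloured by branch. Points are means and lines span the lowest to highest of the 5 WT mice; *Apoe* stands apart at 472 CPM per kilobase and the lowest gene, *Tm7sf2*, is at 3.36.

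The mevalonate and prenyl steps turn acetyl-CoA into farnesyl and geranylgeranyl pyrophosphate. In the KO PFC, 6 of the 8 genes had a positive log2 fold change, 0 were called and 2 were at an unadjusted p under 0.05, with a median of 0.07. Over all tested genes the median was -0.0044, 5.51% were higher and 5.10% lower at an unadjusted p under 0.05. *Fdps*, which makes farnesyl pyrophosphate, was at 17.6, 17.4, 16.8, 17.9 and 20.4 CPM in KO mice 1 to 5 and at 15.1, 15.1, 15.5, 16.6 and 15.3 CPM in WT mice 1 to 5. Every KO mouse was above every WT mouse, and the gap between the groups was narrow. The log2 fold change of *Fdps* was 0.17 ± 0.07 (SE) and did not pass the test (adjusted p = 0.354, edgeR). Without KO mouse 5, the KO mean of *Fdps* was 17.4 CPM, 12.2% above the WT mean, against 16.0% with it. Of the *Fdps* exon bases, 26.7% overlapped another annotated gene, *Gm43738*, on the same strand. Whether *Gm43738* was among the counted genes was not examined, so the *Fdps* count was uncertain.

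*Idi1*, the isomerase that makes dimethylallyl pyrophosphate, was at 19.1, 18.8, 15.7, 18.8 and 15.4 CPM in KO and 15.7, 17.6, 16.6, 15.6 and 15.2 CPM in WT mice. KO mice 1, 2 and 4, all of high RIN, were above every WT mouse, and KO mice 3 and 5, both of low RIN, were within the WT range. Its log2 fold change was 0.17 ± 0.08 (SE, adjusted p = 0.430, edgeR). Among the mice of high RIN alone it was 0.23, and among those of low RIN -0.05.

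*Hmgcs1* had a log2 fold change of 0.06 ± 0.03 (SE), with 349 ± 26.4 CPM in KO and 326 ± 13.1 CPM in WT mice (SD, n = 5). *Mvk*, mevalonate kinase, had 0.14 ± 0.07, and *Mvd*, which decarboxylates mevalonate pyrophosphate, had 0.07 ± 0.07. *Acat2*, the thiolase at the first step, had 0.05 ± 0.05, and 65.6% of its longest transcript was shared with other annotated genes at 95% identity or more, so its count was uncertain. The 2 genes with negative values were *Pmvk*, phosphomevalonate kinase, at -0.06 ± 0.07 and *Ggps1*, which makes geranylgeranyl pyrophosphate, at -0.05 ± 0.04. None of these 6 passed the test.

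From squalene to cholesterol, 8 of 11 genes had a positive log2 fold change, with a median of 0.05, 2 were at an unadjusted p under 0.05, and *Fdft1* was the 1 gene called. *Fdft1* is on chromosome 14 (mm10, 63145150 to 63179578, minus strand). It was at 104, 106, 106, 106 and 114 CPM in KO mice 1 to 5 and at 93.4, 87.1, 96.2, 95.9 and 94.2 CPM in WT mice 1 to 5. Every KO mouse was above every WT mouse, KO mice 1 to 4 lay close together, and KO mouse 5 was the highest.

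The KO mean of *Fdft1* was 107 ± 4.14 CPM and the WT mean 93.4 ± 3.70 CPM (SD, n = 5), a difference of 14.9%, and 13.0% without KO mouse 5. The 95% interval of its fold change was 1.06 to 1.18. Its log2 fold change stayed between 0.15 and 0.21 in 27 other analyses, of which 6 called it, with adjusted p values from 0.00943 in DESeq2 to 0.865 among the 4 mice of low RIN. Without surrogate variables, which are covariates estimated from the counts for unrecorded differences between libraries, the log2 fold change was 0.20 and the adjusted p 0.120. Without KO mouse 5 the adjusted p was 0.0923, and each of KO mice 1, 3 and 4 and WT mice 3, 4 and 5 also ended the call when left out.

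Among the mice of high RIN the log2 fold change of *Fdft1* was 0.20 (adjusted p = 0.400) and among those of low RIN 0.20 (adjusted p = 0.865, edgeR). With the oligodendrocyte marker score as a covariate it was 0.19 (adjusted p = 0.179). With RIN as a covariate it was 0.20 (adjusted p = 0.0514, edgeR). The fits within RIN classes held 3 KO against 3 WT and 2 against 2 mice, without surrogate variables. The part of RIN in the *Fdft1* difference was not tested.

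Counting may also touch *Fdft1*. Of its exon bases, 18.3% overlapped *Ctsb*, a cathepsin gene on the opposite strand, and whether the reads were counted by strand is not given in the sources used here. *Ctsb* itself was at 645 ± 21.3 CPM in KO and 640 ± 22.0 CPM in WT mice, with a log2 fold change of 0.02 (adjusted p = 0.857, edgeR). In addition, 33.7% of the longest *Fdft1* transcript matched 1 other annotated gene at 95% identity or more.

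*Hsd17b7*, a sterol 3-ketoreductase, was at 38.5, 30.4, 34.3, 33.2 and 32.5 CPM in KO and 31.1, 33.1, 32.7, 31.3 and 27.4 CPM in WT mice. The groups overlapped, with KO mouse 1 the highest and WT mouse 5 the lowest of all. *Hsd17b7* had a log2 fold change of 0.17 ± 0.06 (SE) and did not pass the test (adjusted p = 0.217, edgeR).

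*Sqle*, squalene epoxidase and a rate-limiting step of sterol synthesis, was named after its values were seen. It was at 71.1, 71.9, 70.9, 66.2 and 90.0 CPM in KO and 64.9, 62.4, 71.4, 66.7 and 64.4 CPM in WT mice. KO mouse 5 was alone at the top, and the other 4 KO mice lay within the WT range or, for KO mouse 2, just above it. The log2 fold change of *Sqle* was 0.08 ± 0.04 (SE, adjusted p = 0.549), and its KO mean was 12.2% above the WT mean with KO mouse 5 and 6.14% without it.

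*Lss*, lanosterol synthase, had a log2 fold change of 0.04 ± 0.06, *Tm7sf2* 0.13 ± 0.08, and *Dhcr7*, the reductase of the last step, 0.05 ± 0.06. The methyl sterol oxidase gene *Msmo1* had 0.05 ± 0.05 and *Cyp51*, lanosterol demethylase, 0.01 ± 0.05. Negative values were found for *Nsdhl*, a sterol dehydrogenase, at -0.11 ± 0.07 (0.01 without surrogate variables), for *Ebp*, the sterol isomerase, at -0.05 ± 0.07, and for *Sc5d*, the C5 desaturase, at -0.01 ± 0.04. None of these 8 passed the test.

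**Figure D2:**
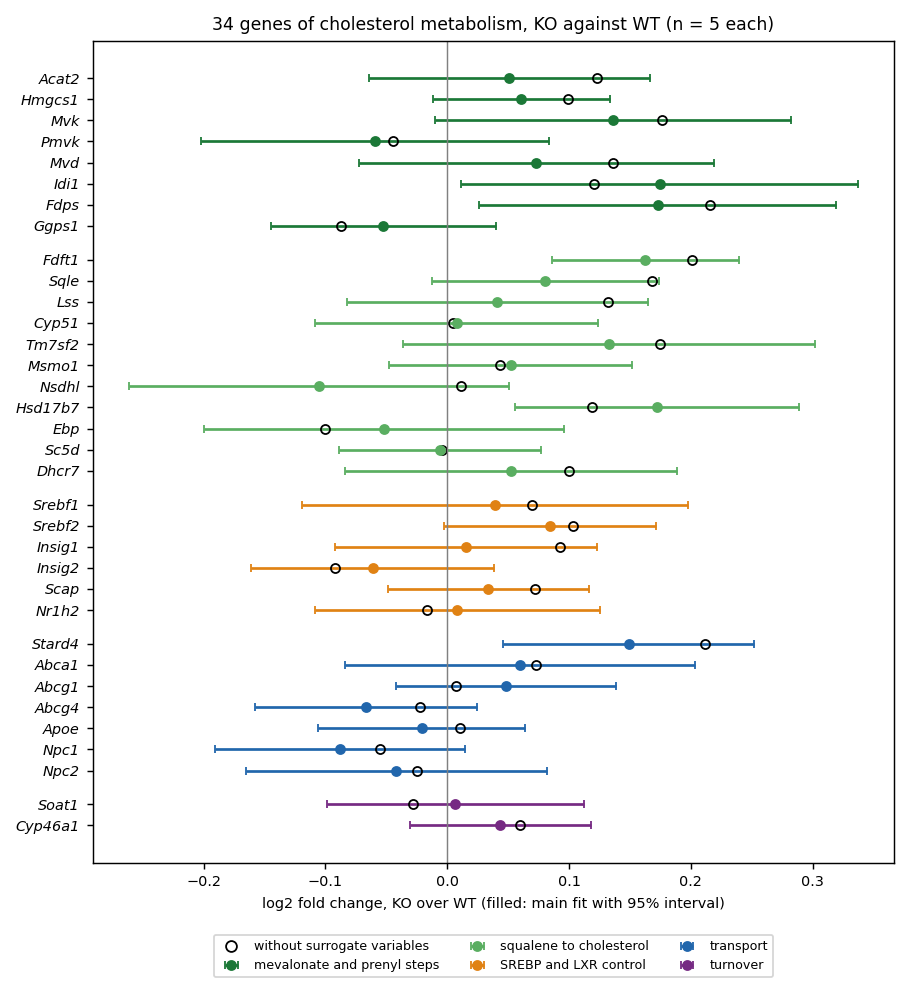
Log2 fold change of KO over WT for the 34 genes, grouped by branch. Filled points are the edgeR fit with 3 surrogate variables and its 95% interval, and open points the fit without surrogate variables; 5 intervals leave out 0, of *Idi1*, *Fdps*, *Fdft1*, *Hsd17b7* and *Stard4*, and *Fdft1* alone has an adjusted p under 0.05.

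SREBP and LXR control showed 5 of 6 positive values, 0 calls and 0 genes at an unadjusted p under 0.05 (edgeR), with a median log2 fold change of 0.02. *Srebf2* was at 267, 260, 274, 265 and 270 CPM in KO and 259, 222, 266, 244 and 252 CPM in WT mice. The groups overlapped through WT mouse 3, and WT mouse 2 was the lowest. Its log2 fold change was 0.08 ± 0.04 (SE, adjusted p = 0.488, edgeR), with a 95% interval of the fold change from 0.998 to 1.13.

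*Insig2*, an ER anchor of SCAP, was at 43.7, 47.3, 45.4, 45.0 and 38.4 CPM in KO and 47.4, 48.9, 46.4, 45.1 and 46.3 CPM in WT mice. The groups overlapped, and KO mouse 5 was the lowest. The log2 fold change was -0.06 ± 0.05 (SE, adjusted p = 0.718).

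*Insig1*, the anchor that SREBP itself induces, was also named after its values were seen. It was at 67.5, 66.4, 62.5, 71.4 and 93.5 CPM in KO and 72.5, 64.4, 64.5, 69.6 and 68.6 CPM in WT mice. The first 4 KO mice lay around the WT range and KO mouse 5 stood far above it. The KO mean of *Insig1* was 6.38% above the WT mean with KO mouse 5, differed from it by -1.44% without that mouse, and the log2 fold change was 0.02 ± 0.05 (SE).

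*Srebf1* had a log2 fold change of 0.04 ± 0.07, *Scap*, the escort of SREBP, 0.03 ± 0.04, and *Nr1h2*, which encodes the sterol-sensing receptor LXR-beta, 0.01 ± 0.06 (-0.02 without surrogate variables). None passed the test.

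Transport genes had 3 positive and 4 negative values, 0 calls and a median log2 fold change of -0.02. *Stard4*, a cytosolic sterol carrier, was at 41.4, 41.5, 42.9, 42.2 and 49.5 CPM in KO and 36.5, 34.4, 38.8, 39.5 and 39.0 CPM in WT mice. Every KO mouse was above every WT mouse, and KO mouse 5 was the highest. Its log2 fold change was 0.15 ± 0.05 (SE) and did not pass the test (adjusted p = 0.227, edgeR). The KO mean was 15.6% above the WT mean with KO mouse 5 and 11.6% without it.

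*Npc1*, which moves cholesterol out of lysosomes, was at 58.7, 72.9, 60.2, 67.4 and 61.7 CPM in KO and 66.0, 64.5, 66.2, 69.3 and 67.3 CPM in WT mice. KO mice 1, 3 and 5 were below every WT mouse and KO mouse 2 was above them all. The log2 fold change of *Npc1* was -0.09 ± 0.05 (SE, adjusted p = 0.557, edgeR).

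The partner of *Npc1* in the lysosome, *Npc2*, had -0.04 ± 0.06. The efflux pumps *Abca1*, *Abcg1* and *Abcg4* had 0.06 ± 0.07, 0.05 ± 0.04 and -0.07 ± 0.04, and *Apoe* had -0.02 ± 0.04, with 1017 ± 61.7 CPM in KO and 1010 ± 54.1 CPM in WT mice (SD, n = 5). The sign of the *Apoe* value depended on the surrogate variables, without which it was 0.01, and it was positive in 13 of 28 analyses. The 95% interval of the *Apoe* fold change was 0.929 to 1.05. None of these 5 passed the test.

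The 2 turnover genes did not pass either. *Cyp46a1* was at 218, 214, 207, 212 and 233 CPM in KO and 217, 204, 211, 206 and 202 CPM in WT mice, overlapping, with KO mouse 5 the highest. Its log2 fold change was 0.04 ± 0.04 (SE, adjusted p = 0.732, edgeR). *Soat1* was at 37.0, 37.3, 36.7, 34.8 and 29.7 CPM in KO and 36.5, 35.9, 36.6, 37.4 and 32.3 CPM in WT mice, overlapping, with KO mouse 5 the lowest. For *Soat1* the log2 fold change was 0.01 ± 0.05 (SE, adjusted p = 0.982), and -0.03 without surrogate variables.

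**Figure D3:**
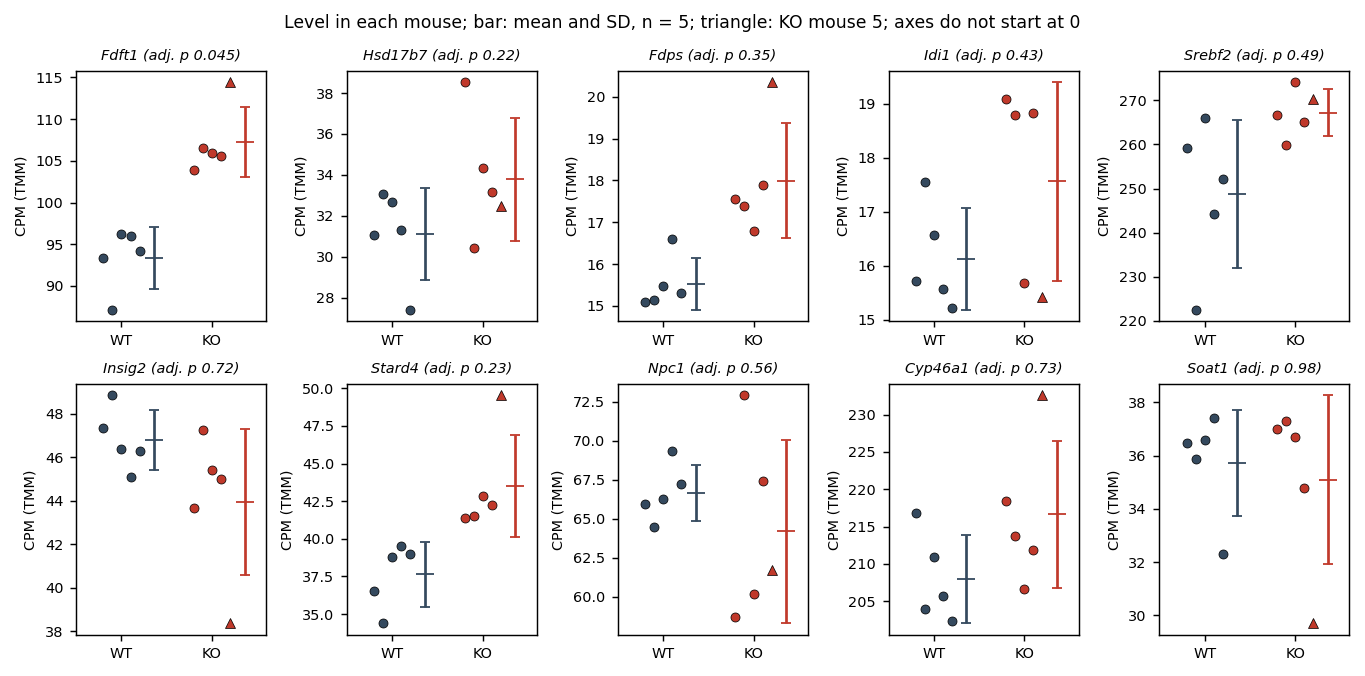
CPM with TMM normalization in each of 5 WT and 5 KO mice for the called gene, the genes whose groups do not overlap and the 2 genes of smallest unadjusted p in each branch. Bars are means and SD (n = 5), triangles are KO mouse 5 and the axes do not start at 0; the groups are apart for *Fdft1*, *Fdps* and *Stard4* and overlap in the other 7 panels.

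In all, 3 of the 34 genes had every KO mouse above every WT mouse, *Fdft1*, *Fdps* and *Stard4*, and 0 had every KO mouse below. Over all tested genes the shares were 0.899% and 0.683%. At an unadjusted p under 0.05, 5 of 34 genes were higher and 0 lower. Positive values were found for 24 of 34 genes, or 70.6%, against 48.1% of all tested genes, and the median log2 fold change was 0.04 over the 34 genes and -0.0044 over all. These genes share regulators and libraries, so the counts are a description and carry no test.

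A branch score was taken in each mouse as the mean deviation of the branch's log2(CPM + 1) values from their means over the 10 mice. For the mevalonate and prenyl steps it was 0.04, 0.04, -0.04, 0.05 and 0.13 in KO mice 1 to 5 and -0.06, -0.06, -0.03, -0.01 and -0.05 in WT mice 1 to 5. All KO mice except mouse 3 were above the WT mice. The difference was 0.08, and 0.06 without KO mouse 5. It was 0.10 within the mice of high RIN and 0.07 within those of low RIN.

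For squalene to cholesterol the score was 0.05, 0.07, -0.04, -0.03 and 0.13 in KO and -0.03, -0.04, -0.0015, -0.05 and -0.06 in WT mice. KO mice 1, 2 and 5 were above every WT mouse, and KO mice 3 and 4 were within the WT range. The difference was 0.07, and 0.05 without KO mouse 5. In SREBP and LXR control, transport and turnover the differences were 0.03, 0.03 and 0.01, each below the SD of the WT mice, which was 0.06, 0.05 and 0.05. Branch scores were not adjusted for surrogate variables, whereas the branch medians given above were. For transport, the median log2 fold change was -0.0209 with surrogate variables and 0.0073 without them, and 3 and 4 of the 7 genes were positive.

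**Figure D4:**
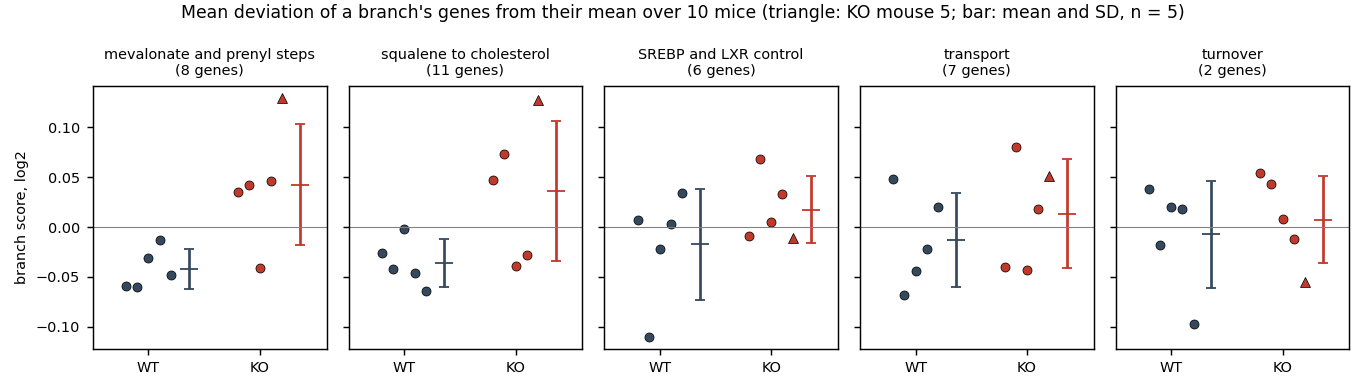
Branch score, in log2 units, of each mouse for the 5 branches, with mean and SD (n = 5) and KO mouse 5 as a triangle. KO mouse 5 is the highest mouse in both synthesis branches, at 0.13, and the lowest KO mouse in turnover, at -0.06.

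KO mouse 5 was the highest of the 10 mice for 10 of the 19 synthesis genes and for 4 of the other 15, and the lowest for 2 and 3 of them. WT mouse 2 was the lowest for 7 and WT mouse 5 for 5 of the 19 synthesis genes. Over all tested genes, WT mouse 2 was the lowest in 12.9% and WT mouse 5 in 6.8%. KO mouse 5 was the highest in 18.9% and the lowest in 18.3% of them. Without surrogate variables, the median log2 fold change of the 19 genes was 0.12 with KO mouse 5 and 0.06 without it, and 15 of 19 were positive both ways. With surrogate variables, the median was 0.0523 with KO mouse 5 and 0.0579 without it, and 14 and 15 of 19 were positive. Over the 19 synthesis genes the same score was 0.1282 in KO mouse 5 and 0.0419, 0.0599, -0.0396 and 0.0029 in KO mice 1 to 4. In WT mice 3 and 4, also of low RIN, it was -0.0141 and -0.0323. In WT mouse 2, whose library held 47343536 counts, it was -0.0496. The part of RIN, depth or genotype in the values of KO mouse 5 was not tested.

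**Figure D5:**
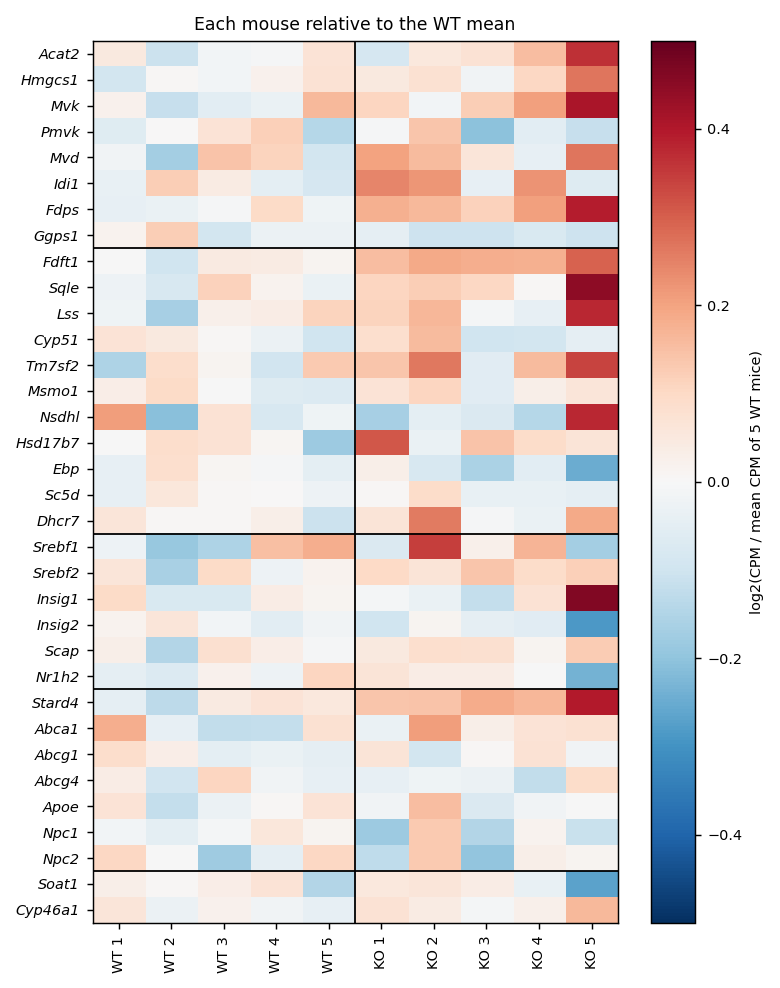
Log2 ratio of each mouse's CPM to the mean of the 5 WT mice for the 34 genes, with lines between branches and genotypes. The column of KO mouse 5 holds the strongest colours, with *Sqle*, *Insig1* and *Mvk* high and *Insig2*, *Soat1* and *Ebp* low.

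Genes next to the pathway were examined in 3 lists. In fatty acid synthesis, 0 of 12 genes were called by edgeR, DESeq2 or limma, and 2 were higher and 2 lower at an unadjusted p under 0.05. Positive log2 fold changes were found for 5 of the 12, with a median of -0.04. In this list, 1 gene had every KO mouse above every WT mouse and 0 had every KO mouse below, against 0.899% and 0.683% of all tested genes. *Fasn*, fatty acid synthase, was at 318 ± 13.5 CPM in KO and 289 ± 26.4 CPM in WT mice (SD, n = 5), with a log2 fold change of 0.12 ± 0.04 (SE, adjusted p = 0.276, edgeR). *Elovl5*, an elongase, was at 65.0 ± 4.59 and 70.0 ± 4.41 CPM, with -0.12 ± 0.04 (adjusted p = 0.305).

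In other sterol handling, 0 of 25 genes were called by the 3 tools, with 0 higher and 4 lower at an unadjusted p under 0.05. The genotypes overlapped for every gene of this list. *Abca7*, a lipid transporter, was at 20.7 ± 2.98 CPM in KO and 23.3 ± 2.15 CPM in WT mice, with a log2 fold change of -0.24 ± 0.06 (SE, adjusted p = 0.103, edgeR). *Lrp8*, an ApoE and reelin receptor, was at 96.1 ± 7.54 and 109 ± 9.51 CPM, with -0.17 ± 0.05 (adjusted p = 0.117). Without KO mouse 2 both were called, at -0.29 (adjusted p = 0.0282) and -0.20 (adjusted p = 0.0358). Leaving out that mouse gave 248 calls over all genes, against 121 with all mice. Without surrogate variables, the adjusted p was 0.678 for *Abca7* and 0.488 for *Lrp8* (edgeR).

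In prenyl users, which take the isoprenoids for other products, 0 of 6 genes were called by the 3 tools and 0 were at an unadjusted p under 0.05. The genotypes overlapped for every gene here as well. *Pdss2* and *Pdss1*, the subunits of the synthase that makes the coenzyme Q tail, had log2 fold changes of -0.07 ± 0.08 and 0.08 ± 0.10 (SE).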

How the data were processed

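Total RNA from the PFC of 5 KO and 5 WT mice was sequenced as stranded mRNA libraries. Per the submitters' processing notes and methods, reads were aligned to mm10 with STAR (2.7.1a). Only uniquely mapped reads were kept, so reads shared by gene copies were lost. Exons of Gencode M21 genes were counted with HTSeq (0.9.1) in intersection-strict mode, and the methods base the counts on protein-coding genes. Overlaps and shared sequence given above were taken against all annotated genes, so they may include genes that were not counted. The deposited values are raw counts of the authors for 22000 genes, 30220122 to 51231439 per library. A floor of 3 counts was 0.0586 to 0.0993 CPM, which covers counting error only.

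The main test was the quasi-likelihood test of edgeR (4.0.16, R 4.3.3) on TMM-normalized libraries, after filterByExpr had kept 14344 genes, with genotype and 3 surrogate variables from sva (3.50.0, seed 1) on log2(CPM + 1), with Benjamini-Hochberg adjustment over all genes and a threshold of 0.05. The deposited study used linear models on CPM with surrogate variables. Scripts were tested on simulated data. Alternatives were DESeq2 (1.42.0), limma (3.58.1), other covariates, scalings, filters and mice left out. Nothing in the labels says that mice came from separate litters, so p-values measure only the spread between these mice. In the main fit this is the spread that was left after the 3 surrogate variables. CPM given per mouse are TMM-normalized and not adjusted for surrogate variables.

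The 34 genes and the other lists were chosen with earlier results of these data known. Values in every mouse are given for genes that were called, did not overlap between genotypes or had the 2 smallest unadjusted p in their branch, and genes outside this rule are said to be so. Positions came from Gencode M21, promoters from RefSeq (GRCm38.p6), and shared sequence from blastn (2.17.0). Python (3.11.15), pandas (2.3.3) and matplotlib (3.10.9) were used for summaries and figures.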

Additional observations from a re-analysis of the deposited data

Results flagged for a closer look

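In groups of 5 mice, 7 of the 78 values examined (34 genes and 5 branch scores in each genotype) had 1 mouse far from the others, where chance gives about 3.9. KO mouse 5 was that mouse in 6 of them. It was the highest KO mouse for *Fdft1* at 114.5 CPM, *Sqle* at 90.0 CPM, *Nsdhl* at 29.1 CPM, *Insig1* at 93.5 CPM and *Stard4* at 49.5 CPM, and the lowest for *Nr1h2* at 35.6 CPM. WT mouse 4 was the highest WT mouse for *Fdps*, at 16.6 CPM. KO mouse 5 had the lowest RIN, 8.1, and the deepest library, 51231439 counts, and the part of either in these values was not tested.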

How the results depend on the processing

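Over the 34 genes and 27 alternatives, 918 log2 fold changes were computed. None was called in the opposite direction, 820 kept the direction and the side of the threshold, 77 changed sign without a call on either side, in 15 genes, and 21 were *Fdft1* without its call. The count of genes called higher was 0 in place of 1 with no, 1 or 2 surrogate variables, with RIN or the oligodendrocyte score as covariate, in both RIN classes, with limma at either pseudocount, with library size alone, with surrogate variables on TMM-scaled CPM, and without surrogate variables and KO mouse 3 or 5. The last 3 of these were chosen after seeing the data. Leaving out each mouse gave 0 to 1.

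Over all genes, 121 calls became 30, 34 and 57 with no, 1 and 2 surrogate variables, 38 with RIN and 18 with the oligodendrocyte score as covariate, 1 and 0 in the high and low RIN classes, 229 in DESeq2, 8 and 0 in limma with pseudocounts 1 and 0.1, 26 and 13 without surrogate variables and KO mouse 5 or 3, 217 at a threshold of 0.1, and 39 to 248 when each mouse was left out. It was 59, 248 and 54 without KO mice 1, 2 and 3 and 39 and 65 without WT mice 3 and 4.

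Median log2 fold changes moved by more than the SD of the WT branch score in the following. For the mevalonate steps, 0.07 became 0.12 without surrogate variables, 0.12 with RIN, 0.11 with the oligodendrocyte score, 0.0877 at high RIN and 0.14 without surrogate variables and KO mouse 3, and was 0.0582 to 0.0927 with each mouse left out. For squalene to cholesterol, 0.05 became 0.10, 0.10 with RIN, 0.11 at high and 0.0796 at low RIN and 0.11 without surrogate variables and KO mouse 3, and was 0.0219 to 0.0935 with each mouse left out. Transport went from -0.02 to 0.0347 with the oligodendrocyte score and was -0.0416 to 0.0356 with each mouse left out, the highest without WT mouse 5, and turnover became -0.0407 at low RIN.

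With each mouse left out, in comparisons of the last 2 kinds added after seeing the data, calls in other sterol handling numbered 0 to 2 (2 without KO mouse 2), genes with every KO mouse below every WT mouse numbered 0 to 1 (1 without KO mouse 1 or WT mouse 3), and the score difference of the mevalonate steps was 0.0629 to 0.106, the lowest without KO mouse 5 and the highest without KO mouse 3.

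The replicate numbers were not treated as pairs in the main fit. Same-numbered mice had correlations of -0.11 to 0.17, 3 of 5 above 0.1, and 2 of 5 KO mice were closest to their own number. These few values cannot tell whether the mice were paired. With the replicate block in place of surrogate variables, 24 genes and 0 of the 34 were called, the medians of the synthesis branches were 0.12 and 0.10, and *Fdft1* had an adjusted p of 0.146 (edgeR). The causes of these changes were not tested.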
